A study of Mus musculus with 16 samples.

Results

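The data compared KPC tumours of a Trp53bp1 knockout line, Trp53bp1 being the gene of the repair factor 53BP1, with KPC tumours of the unedited line. The comparison used 10 of the 16 tumours of the series, taken by cell line, 5 of genotype WT and 5 of genotype Trp53bp1 KO. KPC is the usual name of mouse pancreatic cancer lines from a genetic model with driver mutations in pancreatic epithelium, and both groups share that line. Cells of each genotype were grown as tumours in syngeneic mice, which match the line genetically, and no treatment is listed. The series as a whole asks how 53BP1 bears on the immune response to a tumour. The knockout was made in the line, so immune, stromal and other host cells in the tumour retained the gene. The age, sex and strain of the mice, the site of implantation, the deleted part of the gene and the number of knockout clones are not given in the sources used here. With a single line named per genotype, the knockout and any other difference between the lines cannot be told apart. The labels call the tumours biological replicates but do not say whether each came from a separate mouse. The p-values set the difference between the groups against the spread between these tumours.

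53BP1 binds chromatin around DNA double-strand breaks and, through Rif1 and the shieldin complex, shields broken ends from resection, which favours end joining over homologous recombination. Cells without Brca1 can regain homologous recombination when 53BP1 is lost. Pancreatic cancers hold ductal cancer cells among many fibroblasts, macrophages and other host cells, and RNA of a whole tumour mixes them all. In such bulk samples, fewer cells of a type and less RNA per cell cannot be told apart.

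The deposited values are estimated counts per gene. Library totals were 17902867 to 19302932 counts in wild type and 18452327 to 19170258 in knockout, so 3 counts, the limit that a count of 0 allows, correspond to 0.155 to 0.168 CPM, the unit of counts relative to the library total. Levels of single genes below are CPM scaled between libraries by the trimmed mean of M values (TMM), and differences are log2 changes of knockout against wild type. A gene was called, and is said to have risen or fallen, when edgeR's quasi-likelihood test over all genes gave a Benjamini-Hochberg adjusted p below 0.05. Values joined by ± are a mean and its SD over 5 tumours.

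Trp53bp1 itself was lower in every knockout tumour. Trp53bp1 measured 50.5, 50.3, 54, 46.7 and 56 CPM in wild-type replicates 1 to 5 and 27.9, 37.1, 37.9, 34.9 and 32.9 CPM in knockout replicates 1 to 5. The groups did not overlap (log2 change -0.59, SE 0.0898, edgeR adjusted p = 0.004), and an exact permutation test of the 10 values, two-sided, had p = 0.00794, its smallest possible value. Its change was -0.40 (edgeR adjusted p = 0.101) with a score of leukocyte genes in the model, which ended the call. How much of the remaining Trp53bp1 RNA came from host cells was not tested.

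Of the 15 tested genes of 53BP1 and its partners, Rif1 was the other that fell, and none rose. Across all genes, 952 of 14283 tested rose (6.67%) and 1001 fell (7.01%), with a median log2 change of -0.012. Rif1 measured 58, 48.1, 52.8, 35.5 and 58.5 CPM in wild-type replicates 1 to 5 and 29.7, 35.5, 34.4, 30.5 and 30.3 CPM in knockout replicates 1 to 5. Wild-type replicate 4 and knockout replicate 2 were nearly level for this gene, whose product 53BP1 brings to breaks, and the other wild-type tumours were above all knockout tumours (log2 change -0.66, SE 0.128, edgeR adjusted p = 0.0117). The partner list had a median log2 change of -0.077. The shieldin genes Shld1, Shld2 and Shld3 had log2 changes of -0.23, -0.19 and 0.17, and Paxip1, whose product PTIP is the other main effector of 53BP1, had -0.04, none of them called. Of 23 homologous recombination genes 3 fell and none rose, with a median of -0.079. Brca2, a mediator of homologous recombination, fell from 11.3 ± 1.19 to 7.84 ± 0.745 CPM (SD, n = 5 each; log2 change -0.53, SE 0.111, edgeR adjusted p = 0.0155). Bard1, the partner of Brca1, and Xrcc2, another factor of this repair, fell by log2 changes of -0.39 and -0.38, while Brca1 was not called. Of 14 end joining genes 1 fell, Xrcc5, which encodes the Ku80 subunit. Xrcc5 measured 59.9, 60.2, 59.4, 44.5 and 61.5 CPM in wild-type replicates 1 to 5 and 36.7, 48.5, 41.2, 34.1 and 41.9 CPM in knockout replicates 1 to 5. Wild-type replicate 4 lay among the knockout tumours, so the groups overlapped. Rif1, Brca2, Bard1, Xrcc2 and Xrcc5 all lost their calls with either host score in the model. The part of host cells in these changes was not tested, nor was that of the shifts of whole chromosomes described below.

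The share of host tissue differed between tumours of 1 genotype. As sums in CPM of all counts, without TMM scaling, the 39 skeletal muscle genes took 4612, 48510, 2872, 11440 and 1274 in wild-type replicates 1 to 5 and 318.3, 7100, 220.4, 279.2 and 10180 in knockout replicates 1 to 5. Wild-type replicate 2 was the highest in muscle, and knockout replicates 1, 3 and 4 were below all wild-type tumours. The 16 pan-leukocyte genes summed to 734.9, 701.4, 1105, 1611 and 611.4 in wild type and to 2671, 1352, 1566, 2407 and 1586 in knockout. Wild-type replicate 4 was the one wild-type tumour within the knockout range. Skin and squamous genes were high in wild-type replicate 3, at 1009 against 110.1 to 257.3 in the other wild-type tumours, with Krt5 at 189.5 and Krt10 at 195.2 CPM. Adipocyte genes were highest in wild-type replicate 5, at 1599, with Adipoq at 44.07 CPM against 6.87 to 14.75 in the other wild-type tumours. The 28 fibroblast genes, at 9575 to 15080 in wild type and 12420 to 15350 in knockout, and the 22 endothelial genes, at 848.7 to 1200 and 878.7 to 1163, overlapped between genotypes. Of the cell types a pancreatic tumour could hold, acinar cells were at or near 0, with Cela2a at 0 counts in all 10 tumours and Cpa1 at most 0.5586 CPM, and of 3 tested acinar and islet genes Cela1 and Reg1 fell. The markers of an epithelial cancer line, Epcam, Krt8 and Krt19, were present in every tumour.

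**Figure D1:**
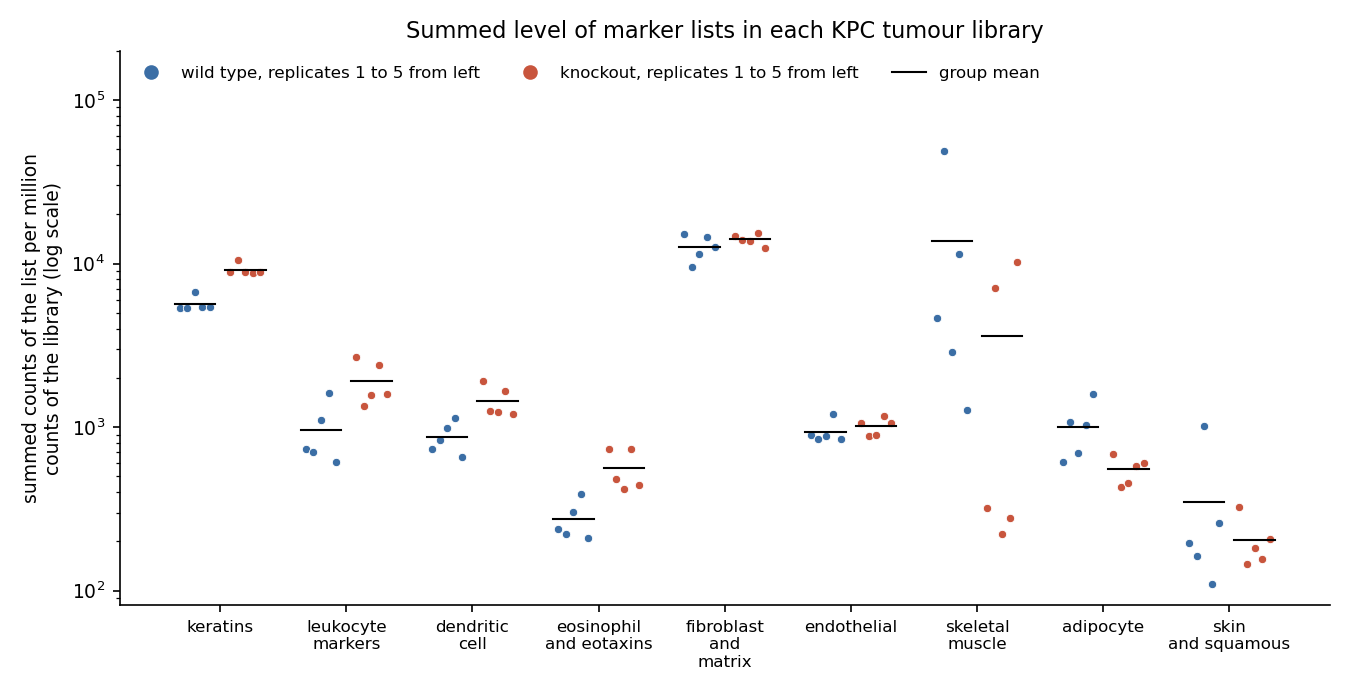
Each point is 1 tumour, and its height is the summed CPM of a marker list, not TMM-scaled, on a log scale, with replicates 1 to 5 from left to right and the group mean as a bar. Keratins, dendritic cell and eosinophil lists do not overlap between genotypes, whereas skeletal muscle runs from 220.4 in knockout replicate 3 to 48510 in wild-type replicate 2.

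Of the 1953 genes called (13.7% of those tested), 550 (3.85%) changed at least 2-fold, 365 up and 185 down. Among the genes that rose the median log2 change was 0.744, and among those that fell it was -0.492. Groups did not overlap for 1679 genes (11.8%), 762 higher (5.34%) and 917 lower (6.42%) in knockout. Scores for skeletal muscle and for leukocytes were then added to the model, singly and together. The leukocyte score was -1.129 to 0.3369 in wild type and 0.08829 to 1.096 in knockout, so it moved with genotype. The muscle score was -0.5 to 4.273 in wild type and -4.877 to 2.046 in knockout. Knockout replicates 1, 3 and 4 were below all wild-type tumours, so the muscle score too moved in part with genotype. With the muscle score 291 genes were called (0.777% of tested genes higher and 1.26% lower), with the leukocyte score 341 (1.45% higher and 0.938% lower), and with both 163 (0.728% higher and 0.413% lower). A set of 76 genes (0.532%), 37 higher and 39 lower, was called in these 3 fits and with each of the 10 tumours left out in turn, and is named below as the retained set. Without wild-type replicate 4 the number of genes called was 3106, and without wild-type replicate 1 it was 934. Leaving out any other tumour except knockout replicate 2 gave 952 to 1284 genes, so every tumour but that one moved the count by more than 1.5 times.

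Of 12 tested keratins 4 rose in knockout tumours, all of simple epithelium, and 1, Krt23, fell. Krt19 measured 929, 1027, 1360.5, 1029.8 and 1042 CPM in wild-type replicates 1 to 5 and 2110.3, 2470.3, 2205, 2137 and 2127 CPM in knockout replicates 1 to 5. The groups were far apart, and wild-type replicate 3 and knockout replicate 2 were each the highest of their group (log2 change 1.04, SE 0.10003, edgeR adjusted p = 0.000389). Krt8 measured 1721, 1892, 2216, 1865 and 1755 CPM in wild-type replicates 1 to 5 and 3068, 3823, 2937, 3218 and 3002 CPM in knockout replicates 1 to 5. Krt18, the partner with which Krt8 forms filaments, rose from 1312 ± 30.8 to 1826 ± 155 CPM, and Krt7 from 1146 ± 121 to 1871 ± 163 CPM (SD, n = 5 each), again without overlap. Epcam, a homotypic adhesion molecule of epithelia, followed the same order. Epcam measured 155, 196, 182, 120.3 and 251 CPM in wild-type replicates 1 to 5 and 449, 459, 443, 406 and 367 CPM in knockout replicates 1 to 5. Its lowest knockout value was above its highest wild-type value (log2 change 1.23, SE 0.168, edgeR adjusted p = 0.00266). Krt14, Krt15 and Krt16, keratins of stratified epithelium, had log2 changes of -3.27, -2.12 and -1.67 and were not called; the skin genes of wild-type replicate 3 lie beside these values, and their part was not tested. The 4 keratins that rose kept their calls with the muscle score and with the leukocyte score, 4 or 5 of the list rose with any 1 tumour left out, and Krt7, Krt19 and Epcam belong to the retained set.

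Of 24 tight junction genes 4 rose and 4 fell, with a median log2 change of -0.022. The claudin genes Cldn3, Cldn4, Cldn7 and Cldn23 rose. Cldn3 measured 26.3, 21.6, 15.4, 17.3 and 22.5 CPM in wild-type replicates 1 to 5 and 52.5, 60.4, 57.6, 59.3 and 61.8 CPM in knockout replicates 1 to 5. Cldn4 measured 12.4, 11.9, 16.2, 26.3 and 11.1 CPM in wild-type replicates 1 to 5 and 43.7, 70.7, 48.1, 50.2 and 55.8 CPM in knockout replicates 1 to 5. Cldn7 measured 12.7, 16.9, 18.4, 20.6 and 18.4 CPM in wild-type replicates 1 to 5 and 64.3, 58.9, 63.6, 53.6 and 52.3 CPM in knockout replicates 1 to 5. None of these claudins overlapped between groups, and the spread within knockout tumours was small for Cldn3 and Cldn7 (log2 change 1.5, SE 0.132, edgeR adjusted p = 0.000223, and log2 change 1.75, SE 0.124, edgeR adjusted p = 7.1e-05). Occludin, a transmembrane protein of the same junctions, went the other way. Ocln measured 12.5, 13.2, 24.1, 14.7 and 17.7 CPM in wild-type replicates 1 to 5 and 8.15, 9.56, 8.11, 7.05 and 7.64 CPM in knockout replicates 1 to 5. Cldn18, a claudin of stomach and lung that pancreatic cancers also make, fell from 265 ± 49.6 to 180.2 ± 22.4 CPM (SD, n = 5 each; log2 change -0.56, SE 0.132, edgeR adjusted p = 0.0228). Tjp1, the scaffold ZO-1, had a log2 change of -0.49 and Cldn12 of -0.42, both called. With 1 tumour left out 3 or 4 of the list rose and 2 to 5 fell, 2 without knockout replicate 3 or 5. Cldn3 and Cldn7 are in the retained set, while Cldn4 had an edgeR adjusted p of 0.0508 with the leukocyte score.

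Of 23 genes of epithelial adhesion 5 rose and 2 fell, with a median of 0.16, and 4 to 6 rose with any 1 tumour left out. Cdhr5 measured 32.8, 40.5, 39.5, 34.7 and 34.9 CPM in wild-type replicates 1 to 5 and 56.9, 84.5, 87.3, 91.5 and 78.5 CPM in knockout replicates 1 to 5. Cdhr5, a protocadherin of microvilli, rose with Dsc2, a desmosomal cadherin, and the protease inhibitors Spint1 and Spint2. P-cadherin and N-cadherin fell while E-cadherin was not called. Cdh3 measured 4.65, 5.34, 6.81, 3.56 and 6.02 CPM in wild-type replicates 1 to 5 and 1.96, 1.11, 1.29, 0.999 and 1.1 CPM in knockout replicates 1 to 5. Cdh3 was lower in every knockout tumour than in any wild-type tumour (log2 change -2.03, SE 0.245, edgeR adjusted p = 0.00127). Cdh2, N-cadherin, fell from 106 ± 8.13 to 61.6 ± 12.3 CPM (log2 change -0.79, SE 0.13, edgeR adjusted p = 0.0058), and Cdh1, E-cadherin, had a log2 change of 0.16 (edgeR adjusted p = 0.455). Of the 21 mesenchymal genes Cdh2 and Axl were called, both lower. The transcription factor genes Snai1, Snai2, Zeb1, Zeb2 and Twist1 had log2 changes of 0.11, 0.39, -0.23, 0.2 and -0.29, none called, and Vim, vimentin, had 0.17.

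**Figure D2:**
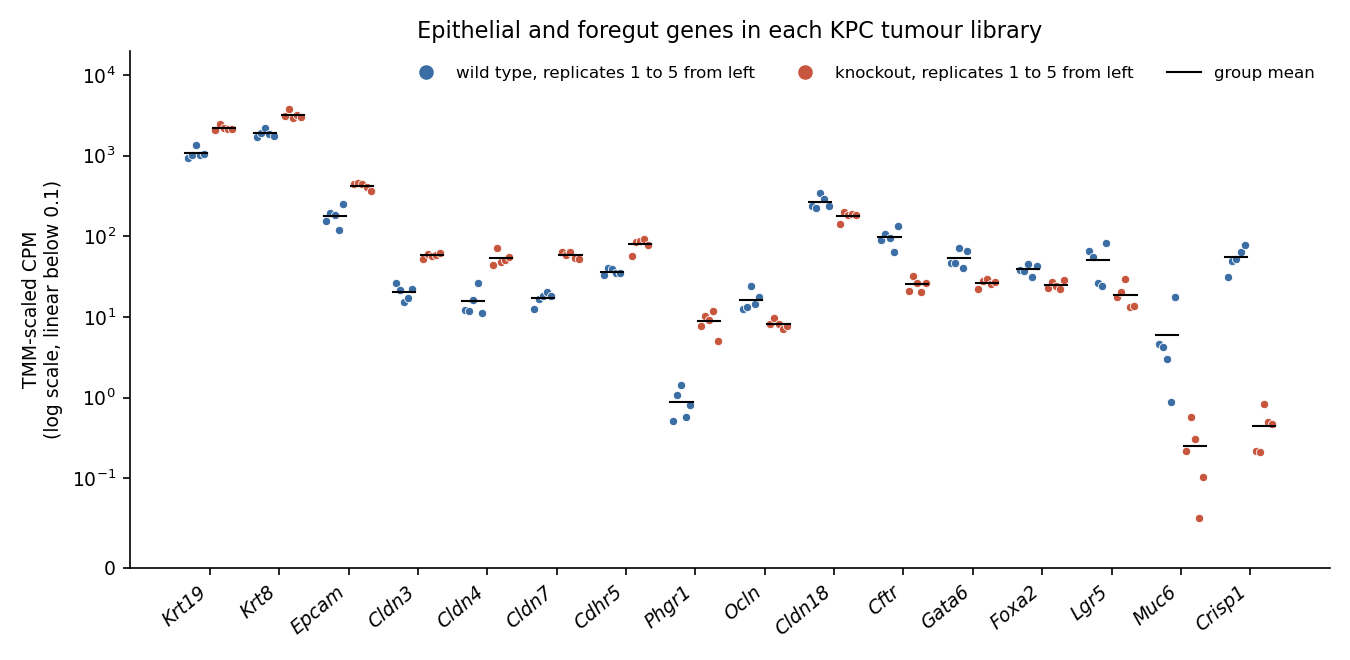
Each point is 1 tumour, with TMM-scaled CPM on a log axis that is linear below 0.1, replicates 1 to 5 from left to right and the group mean as a bar. Krt19, Krt8, Epcam, Cldn3, Cldn4, Cldn7, Cdhr5 and Phgr1 are higher in every knockout tumour than in any wild-type tumour, and Ocln, Cldn18, Cftr, Gata6, Foxa2, Muc6 and Crisp1 are lower.

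The promoters of Cldn3, Cldn4 and Epcam are shown because these genes rose together and because their windows hold the E-box CAGGTG or its reverse complement CACCTG, the letters that SNAIL and ZEB repressors are known to bind. Each window runs 5′ to 3′ on the strand of the gene, from 250 bases before to 50 bases after the RefSeq start site on GRCm38.p6, with E-boxes in capitals. Cldn3 lies on the plus strand at chr5:134985964-134986263, Cldn4 on the minus strand at chr5:134946885-134947184, and Epcam on the plus strand at chr17:87635729-87636028.
Cldn3: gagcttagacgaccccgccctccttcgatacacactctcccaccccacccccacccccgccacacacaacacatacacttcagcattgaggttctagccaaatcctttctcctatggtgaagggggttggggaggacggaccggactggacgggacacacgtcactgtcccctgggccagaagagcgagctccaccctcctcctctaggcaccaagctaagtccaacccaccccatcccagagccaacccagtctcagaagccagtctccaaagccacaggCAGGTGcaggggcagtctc
Cldn4: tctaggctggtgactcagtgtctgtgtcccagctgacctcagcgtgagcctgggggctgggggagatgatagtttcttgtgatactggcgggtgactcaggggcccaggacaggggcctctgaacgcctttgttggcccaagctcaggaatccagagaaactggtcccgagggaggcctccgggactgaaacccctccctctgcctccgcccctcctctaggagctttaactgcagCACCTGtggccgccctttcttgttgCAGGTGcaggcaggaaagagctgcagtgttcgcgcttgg
Epcam: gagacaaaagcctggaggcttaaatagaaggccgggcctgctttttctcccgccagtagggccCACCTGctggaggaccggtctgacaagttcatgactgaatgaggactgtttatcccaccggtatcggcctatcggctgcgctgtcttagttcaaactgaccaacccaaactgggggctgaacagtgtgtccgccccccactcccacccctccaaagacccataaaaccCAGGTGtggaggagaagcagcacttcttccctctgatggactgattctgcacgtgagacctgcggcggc
Cldn3 has 1 E-box in its window, Cldn4 has 2 and Epcam has 2. Over the keratin, tight junction and adhesion lists, 8 of 10 genes that rose and have a window held it (80%), as did 13 of 23 genes not called (56.5%) and 2 of 5 that fell (40%). Of all tested genes with a window, 2396 of 11301 held it (21.2%), and of all 27025 genes with a window 22.6%. The motif was therefore frequent in epithelial genes whether or not they were called, and these matches are descriptions of letters, not of binding.

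Of 23 tested genes of pancreatic ducts and foregut 6 fell and 1 rose, with a median log2 change of -0.504. Cftr measured 90.4, 106, 95.7, 63.7 and 133 CPM in wild-type replicates 1 to 5 and 21.2, 32, 26.6, 20.6 and 26.6 CPM in knockout replicates 1 to 5. Cftr, the chloride channel that ducts use to secrete, was the clearest of them (log2 change -1.94, SE 0.191, edgeR adjusted p = 0.000389). The water channel gene Aqp5 fell from 20.8 ± 7.82 to 6.81 ± 1.11 CPM, and the bicarbonate transporter gene Slc4a4 from 180.4 ± 23.1 to 109.8 ± 26.6 CPM (SD, n = 5 each). Slc26a9, an anion transporter gene of airway and stomach outside this list, fell from 32 ± 10.02 to 8.39 ± 2.59 CPM. Among transcription factors of endoderm, Gata6, Foxa2 and Sox17 fell. Gata6 measured 46.6, 46.3, 70.9, 40.5 and 66.1 CPM in wild-type replicates 1 to 5 and 22.2, 28.1, 29.7, 26 and 27 CPM in knockout replicates 1 to 5. Gata6 groups did not overlap (log2 change -1.02, SE 0.159, edgeR adjusted p = 0.00441), but its edgeR adjusted p was 0.11 with the leukocyte score. Foxa2 fell from 39 ± 5.64 to 25 ± 2.61 CPM, and Sox9 and Pdx1 had log2 changes of -0.67 and -0.02 and were not called. Car2, a carbonic anhydrase of ducts, was the exception and rose from 60.8 ± 11.6 to 214 ± 67.1 CPM (log2 change 1.82, SE 0.214, edgeR adjusted p = 0.00127). Without wild-type replicate 4, 11 of the list fell, where 10.2% of all genes did, and with any other tumour left out 4 to 6 did. With the muscle score 3 fell, and with the leukocyte score 1. Cftr, Slc26a9 and Car2 belong to the retained set.

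Genes of intestinal epithelium mostly rose where they were called, 8 of 22 tested against 2 that fell, with a median of 0.508. Phgr1 measured 0.517, 1.09, 1.44, 0.568 and 0.82 CPM in wild-type replicates 1 to 5 and 7.66, 10.4, 9.19, 11.8 and 4.97 CPM in knockout replicates 1 to 5. Phgr1, a gene of gut epithelium, was low in all wild-type tumours and did not overlap with knockout (log2 change 3.3, SE 0.331, edgeR adjusted p = 0.000389). Lypd8, a glycoprotein gene of colon epithelium, ranged over 0 to 0.327 CPM in wild type and 1.2 to 16.4 CPM in knockout. Clca1, a product of goblet cells, ranged over 0.103 to 0.877 CPM in wild type and 3.19 to 25 CPM in knockout, and Gsdmc2, a gasdermin gene, over 0 to 0.438 CPM in wild type and 1.5 to 38.5 CPM in knockout. For these 3 genes the knockout tumours differed widely among themselves, with knockout replicate 4 the highest for Lypd8 and Clca1 and knockout replicates 2 and 4 far above the rest for Gsdmc2. With the leukocyte score their log2 changes were 3.97, 3.86 and 6.57, with edgeR adjusted p of 0.219, 0.102 and 0.16. Of the list 7 to 9 rose with any 1 tumour left out, 2 with the muscle score and 3 with the leukocyte score. Prap1, a secreted protein of gut outside this list, belongs to the retained set and rose from 4.31 ± 2.03 to 52 ± 24.6 CPM (SD, n = 5 each). Lgr5, a Wnt receptor of gut stem cells, fell, with 24.3 to 83 CPM in wild type and 13.3 to 29.6 CPM in knockout, and knockout replicate 3 lay above wild-type replicates 3 and 4 (log2 change -1.42, SE 0.37, edgeR adjusted p = 0.0334). The master regulators Cdx2 and Hnf4a had log2 changes of 0.06 and -0.27 and were not called.

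Mucins were called in both directions. Of 8 tested mucin and trefoil genes, Muc4 and Muc2 rose and Muc6 fell. Muc6 measured 4.6, 4.19, 2.99, 0.877 and 17.6 CPM in wild-type replicates 1 to 5 and 0.217, 0.581, 0.31, 0.0555 and 0.105 CPM in knockout replicates 1 to 5. Muc6, a mucin of gastric glands, was under the floor of 3 counts in knockout replicates 4 and 5, and wild-type replicate 5 stood far above all others (log2 change -4.53, SE 0.854, edgeR adjusted p = 0.011). Its adjusted p was 0.228 with the leukocyte score. Muc4, a membrane mucin that pancreatic cancers gain, rose from 16.1 ± 4.92 to 37.2 ± 14.6 CPM, and Muc1 had a log2 change of -0.18.

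The decreases with the smallest p took in genes better known from other organs. Crisp1 measured 31, 49.9, 52.8, 63.8 and 79.1 CPM in wild-type replicates 1 to 5 and 0.217, 0.211, 0.826, 0.499 and 0.471 CPM in knockout replicates 1 to 5. Crisp1, a secreted protein of the epididymis, was below 1 CPM in every knockout tumour (log2 change -6.93, SE 0.373, edgeR adjusted p = 1.78e-05). Cacna1a measured 21.9, 19.4, 19.7, 15.6 and 24.8 CPM in wild-type replicates 1 to 5 and 3.15, 2.17, 3.72, 2.997 and 2.56 CPM in knockout replicates 1 to 5. Cacna1a, a calcium channel of neurons, was also clearly separated (log2 change -2.79, SE 0.172, edgeR adjusted p = 2.73e-05). Synpr measured 4.03, 4.36, 4.38, 4.34 and 4.76 CPM in wild-type replicates 1 to 5 and 0.435, 0.423, 0.568, 0.222 and 0.366 CPM in knockout replicates 1 to 5. The spread of Synpr, a synaptic vesicle protein gene, was small in both groups (log2 change -3.42, SE 0.225, edgeR adjusted p = 4.18e-05). Nptx1, a neuronal pentraxin, fell from 11.9 ± 5.52 to 0.941 ± 0.326 CPM, and the potassium channel gene Kcnh2 fell from 8.38 ± 4.17 to 0.882 ± 0.25 CPM. St8sia3, a sialyltransferase gene, measured 3.52, 6.15, 3.92, 1.45 and 9.79 CPM in wild type and 0 in knockout replicates 1, 2, 4 and 5, with 1 count in replicate 3. Mab21l4 fell from 28 ± 7.57 to 2.14 ± 0.904 CPM, Pitpnm3 from 6.82 ± 1.86 to 0.532 ± 0.273 CPM and Crp, C-reactive protein, from 12.5 ± 4.07 to 1.65 ± 0.604 CPM (SD, n = 5 each). All of these 9 decreases are in the retained set.

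The paralogs En1 and En2, and likewise Igf2bp1 and Igf2bp3, were called in opposite directions. En1 measured 27.3, 29.8, 30.7, 29.2 and 29.8 CPM in wild-type replicates 1 to 5 and 12.6, 16.7, 15.5, 12.4 and 16.3 CPM in knockout replicates 1 to 5. En2 measured 0.259, 0.327, 0.155, 0.155 and 0.383 CPM in wild-type replicates 1 to 5 and 2.5, 2.91, 3.2, 3.11 and 2.67 CPM in knockout replicates 1 to 5. En1 and En2 encode the engrailed homeobox factors, and En1 fell (log2 change -1.0, SE 0.0997, edgeR adjusted p = 0.000389) while En2, near the floor in wild type, rose (log2 change 3.47, SE 0.266, edgeR adjusted p = 0.000102). Igf2bp3 measured 3.57, 3.1, 2.22, 1.75 and 2.35 CPM in wild-type replicates 1 to 5 and 8.1, 11.7, 10.7, 9.77 and 11.6 CPM in knockout replicates 1 to 5. Igf2bp3, a fetal RNA-binding protein gene, rose (log2 change 2.0, SE 0.203, edgeR adjusted p = 0.000405), and its paralog Igf2bp1 fell from 4.36 ± 1.12 to 1.39 ± 0.273 CPM (log2 change -1.64, SE 0.228, edgeR adjusted p = 0.00266). Hoxb7 and its neighbour Hoxb6 rose, Hoxb7 from 1.95 ± 0.446 to 6.84 ± 0.923 CPM and Hoxb6 from 3.73 ± 0.74 to 10.03 ± 1.4 CPM, and Dlx1 from 0.675 ± 0.328 to 2.26 ± 0.223 CPM (SD, n = 5 each). All 7 genes are in the retained set. Reads shared between paralogs were not checked here.

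Interleukins 4 and 13 are known to switch macrophages to a program marked by arginase, chitinase-like proteins and resistin-like alpha. Of 21 genes of that program tested, 15 rose and 0 fell, and the list median was 1.62 on the log2 scale. Chil3 measured 4.55, 2.34, 2.22, 4.44 and 2.08 CPM in wild-type replicates 1 to 5 and 41.1, 60.4, 76.7, 92.7 and 31.9 CPM in knockout replicates 1 to 5. Chil3, a chitinase-like protein, separated the groups in every tumour (log2 change 4.27, SE 0.37, edgeR adjusted p = 0.000257). Chil4 measured 0, 0.381, 0.774, 8.83 and 0.656 CPM in wild-type replicates 1 to 5 and 559, 2174, 269, 2635 and 306 CPM in knockout replicates 1 to 5. Chil4, its close relative, was at 0 or under 1 CPM in 4 wild-type tumours, and wild-type replicate 4 was the exception (log2 change 9.11, SE 1.49, edgeR adjusted p = 0.00796). Among knockout tumours Chil4 was highest in replicates 2 and 4, as were Gsdmc2 and Clca1, whereas Retnla and Arg1 were highest in replicates 1 and 4. Which cells made Chil4 was not tested. Reads of Chil3 and Chil4 can be split between them by the counting, so single values are uncertain. Retnla measured 2.64, 20.2, 11.9, 40.6 and 5.3 CPM in wild-type replicates 1 to 5 and 287, 105, 84.7, 225 and 60.3 CPM in knockout replicates 1 to 5. Retnla, resistin-like alpha, varied among knockout tumours, without overlap with wild type (log2 change 3.24, SE 0.763, edgeR adjusted p = 0.0269). Arg1 measured 161, 72.7, 87.5, 146 and 84.2 CPM in wild-type replicates 1 to 5 and 428, 252.2, 307, 422 and 283 CPM in knockout replicates 1 to 5. Arg1, arginase 1, was higher in every knockout tumour than in any wild-type tumour (log2 change 1.62, SE 0.254, edgeR adjusted p = 0.00516). The lectin gene Mgl2 rose from 44.6 ± 23.2 to 163 ± 112 CPM, and Pdcd1lg2, a ligand of PD-1, rose from 5.8 ± 3.61 to 26.2 ± 9.53 CPM. The receptor and signal genes Il4ra and Stat6 had log2 changes of 0.46 and 0.18, and the macrophage receptor Mrc1 had 0.72, none called.

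Of 26 tested genes of macrophages and monocytes in general, Cd163 and Fcgr3 rose and Cx3cr1 fell, with a median of 0.621. Across all genes 6.67% rose and 7.01% fell. Of the 26, 18 rose without wild-type replicate 4, where 11.5% of all genes did. Without the 4 tumours with Acta1 above 1000 CPM 18 rose, where 8.33% of all genes did. With any other tumour except knockout replicate 2 left out 1 rose, and with either host score 0 did by edgeR. The alternative tests DESeq2 and limma-voom had 13 and 11 of the 26 higher. Adgre1 ranged over 48.1 to 129.6 CPM in wild type and 71.5 to 138 CPM in knockout, and the groups overlapped. The muscle score left 4 genes of the alternative program called, the leukocyte score 2 and both 3, and Chil3 and Alox15 belong to the retained set. Without wild-type replicate 4, 18 of the 21 rose, where 11.5% of all genes did, and without the 4 tumours with Acta1 above 1000 CPM 14 rose, where 8.33% of all genes did. The count was 7 without wild-type replicate 5, and 8 without wild-type replicate 1 or 2 or knockout replicate 1 or 4. The part of the leukocyte share in these increases was not tested beyond those fits.

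Eosinophil genes and eotaxins rose with that program. Of 12 tested, 9 rose and none fell, with a median of 2.57. Siglecf measured 2.9997, 3.65, 2.73, 2.94 and 2.02 CPM in wild-type replicates 1 to 5 and 21.7, 10.8, 9.29, 29 and 6.12 CPM in knockout replicates 1 to 5. Siglecf, a surface lectin of eosinophils, had a narrow range in wild type (log2 change 2.42, SE 0.408, edgeR adjusted p = 0.007). Ccr3 measured 0.827, 0.381, 0.929, 3.2 and 0.984 CPM in wild-type replicates 1 to 5 and 26.3, 8.08, 9.81, 25.5 and 6.64 CPM in knockout replicates 1 to 5. Ccr3 is the receptor of eotaxins, and its ligand Ccl24 also rose. Ccl24 measured 5.22, 4.85, 9.13, 11 and 2.95 CPM in wild-type replicates 1 to 5 and 148, 63.5, 35.8, 94.4 and 30.3 CPM in knockout replicates 1 to 5. The other tested eotaxin, Ccl11, rose from 13.3 ± 4.85 to 31.2 ± 11.6 CPM (SD, n = 5 each). Rnase2a measured 0, 0.109, 0.103, 0.31 and 0.0547 CPM in wild-type replicates 1 to 5 and 9.78, 6.82, 8.67, 16.9 and 2.62 CPM in knockout replicates 1 to 5. Rnase2a, a gene of the eosinophil ribonuclease family, had few or no counts in wild type (log2 change 6.19, SE 0.677, edgeR adjusted p = 0.000807). Prg2, the major basic protein of granules, ranged over 0.103 to 1.03 CPM in wild type and 1.67 to 8.21 CPM in knockout. Epx, eosinophil peroxidase, was at most 0.1575 CPM in every tumour. Cebpe, a factor of granulocyte maturation outside this list, rose from 0.575 ± 0.436 to 6.78 ± 3.73 CPM. Knockout replicates 1 and 4 were highest and knockout replicate 5 lowest for Siglecf, Ccr3 and Ccl24, the same tumours that were highest in the leukocyte sum. Rnase2a and Alox15, a lipoxygenase of eosinophils and macrophages, belong to the retained set, and the other 7 that rose did not keep their calls in all of those fits. Of the list 7 to 11 rose with any 1 tumour left out, 3 with the muscle score and 2 with the leukocyte score.

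Counts of the type 2 cytokine genes were low. Il4 had 0, 1, 1, 0 and 0 counts in wild-type replicates 1 to 5 and 12, 9, 6, 3 and 1 in knockout replicates 1 to 5. Il5 had 1, 0, 0, 1 and 0 counts in wild type and 4, 13, 7, 19 and 9 in knockout. Il13 had 0, 0, 0, 2 and 1 counts in wild type and 10, 11, 4, 18 and 2 in knockout. These genes did not pass the count filter. In the fit without a filter the edgeR adjusted p was 0.0278 for Il4, 0.0074 for Il5 and 0.0256 for Il13. Il4 and Il13 each had a knockout tumour level with the highest wild-type tumour, whereas Il5 did not overlap. Ifng, the type 1 cytokine, summed to 20 counts in wild type and 61 in knockout (edgeR adjusted p = 0.121 in the fit without a filter). The alarmin genes that start type 2 responses gave Tslp with 42 and 43 counts in all, and Il33 with a log2 change of -0.13. Of 11 tested type 2 cytokine and alarmin genes 0 were called by edgeR, among them the Il33 receptor Il1rl1 at 1.0 and Il13ra2 at 1.04. Of 11 mast cell genes 1 rose, the protease gene Mcpt4, from 30.8 ± 10.2 to 72.5 ± 20.4 CPM (log2 change 1.24, SE 0.255, edgeR adjusted p = 0.0154), while Cpa3 had a log2 change of 0.04 and Cma1 of 0.14.

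The promoter of Retnla, chr16:48842359-48842658 on the plus strand of GRCm38.p6, is shown because it holds the letters TTC and GAA with any 4 bases between them, the form of site that STAT6, the factor downstream of interleukins 4 and 13, is known to prefer. The match is in capitals, and the pattern, apart from its 4 free bases, reads alike on both strands.
Retnla: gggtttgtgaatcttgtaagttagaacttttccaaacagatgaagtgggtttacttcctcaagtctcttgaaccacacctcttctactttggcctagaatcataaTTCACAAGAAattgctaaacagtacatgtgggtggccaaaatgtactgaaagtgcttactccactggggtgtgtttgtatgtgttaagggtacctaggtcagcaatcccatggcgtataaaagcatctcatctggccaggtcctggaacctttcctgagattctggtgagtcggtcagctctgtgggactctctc
Of the 16 genes of the alternative macrophage and eosinophil lists that rose and have a window, 4 held the motif (25%), namely Ccl17, Clec7a, Pdcd1lg2 and Retnla, against 1 of 6 not called (16.7%) and 744 of all 11301 tested genes (6.58%). A match describes letters and not binding.

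**Figure D3:**
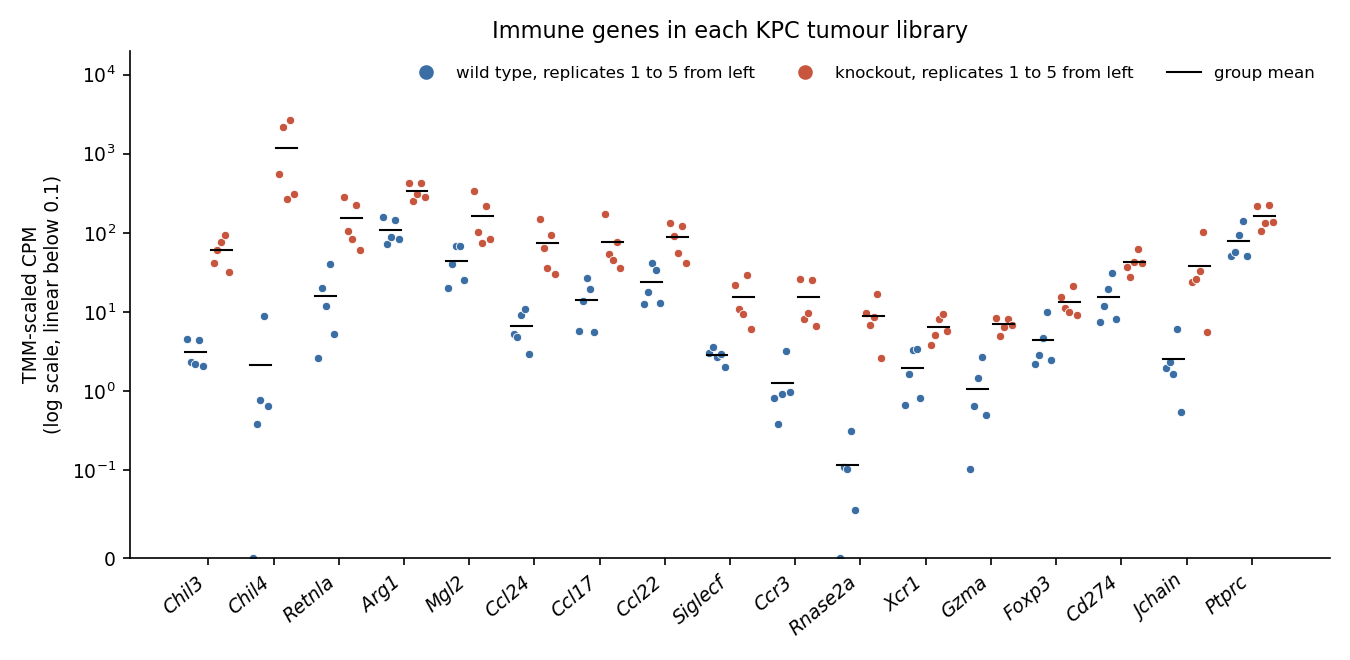
Each point is 1 tumour, with TMM-scaled CPM on a log axis that is linear below 0.1, replicates 1 to 5 from left to right and the group mean as a bar. Chil3, Chil4, Retnla, Siglecf, Ccr3 and Rnase2a do not overlap between groups, while Ptprc, Foxp3, Cd274 and Jchain do, with wild-type replicate 4 the highest wild-type tumour for each of these 4.

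Dendritic cell genes rose as well. Of 20 tested, 9 rose and 1, Fscn1, fell, with a median of 1.38, and the summed list did not overlap, at 658.5 to 1131 CPM unscaled in wild type and 1194 to 1911 in knockout. Xcr1 measured 0.672, 1.63, 3.3, 3.41 and 0.82 CPM in wild-type replicates 1 to 5 and 3.81, 5.07, 8.11, 9.55 and 5.81 CPM in knockout replicates 1 to 5. Clec9a measured 0.724, 2.78, 4.23, 5.26 and 1.04 CPM in wild-type replicates 1 to 5 and 6.8, 7.93, 12.4, 12.2 and 9.26 CPM in knockout replicates 1 to 5. Both are receptors of the dendritic cells that cross-present antigen, and each was higher in every knockout tumour (log2 change 1.71, SE 0.465, edgeR adjusted p = 0.0368, and log2 change 1.79, SE 0.481, edgeR adjusted p = 0.0363). Of the chemokines that draw cells with the receptor Ccr4, Ccl17 rose from 14.4 ± 9.28 to 76.9 ± 55.1 CPM, and Ccl22 from 23.8 ± 13.3 to 88.5 ± 39.4 CPM. Zbtb46, a factor specific to classical dendritic cells, had a log2 change of 0.48, and Flt3, their growth factor receptor, had 1.38, neither called. No dendritic cell gene kept its call with the muscle or the leukocyte score. The count that rose was 16 without wild-type replicate 4, where 11.5% of all genes rose. It was 0 by edgeR without wild-type replicate 1 or 5 or knockout replicate 4. It was 2 without wild-type replicate 2, and 3 without knockout replicate 1, 3 or 5.

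T cell genes had positive changes that mostly did not pass the edgeR test with all 10 tumours, and the count depended on the test used. Of 24 tested, Zap70 and Cd2 rose, against 6.67% higher among all genes, and none fell, with a median of 1.51. The alternative tests DESeq2 and limma-voom had 12 and 21 of the 24 higher. Among all genes they had 1624 and 1642 higher, against 952 by edgeR. Cd3e, part of the T cell receptor complex, ranged over 0.517 to 7.43 CPM in wild type and 4.97 to 9.68 CPM in knockout, and Cd8a over 0.879 to 14.7 CPM in wild type and 7.24 to 11.6 CPM in knockout (edgeR adjusted p = 0.131 and 0.392). Wild-type replicate 4 had the highest wild-type value of both genes, and of Cd8a in any tumour. Without it, 21 of the 24 rose, where 11.5% of all genes did. Without the 4 tumours high in Acta1, which include wild-type replicate 4, 19 rose, where 8.33% of all genes did. No T cell gene was called by edgeR without wild-type replicate 1, 2, 3 or 5 or knockout replicate 1, 3 or 4, nor with either host score. Of 19 cytotoxic effector genes 6 rose, 16 without wild-type replicate 4, 2 or 3 without any other tumour except knockout replicate 2, and 0 by edgeR with either host score. DESeq2 had 11 of these 19 higher and limma-voom 16. Gzma measured 0.103, 0.653, 1.44, 2.68 and 0.492 CPM in wild-type replicates 1 to 5 and 8.43, 5.02, 6.45, 8.21 and 6.8 CPM in knockout replicates 1 to 5. Gzma, granzyme A, did not overlap between groups (log2 change 2.69, SE 0.584, edgeR adjusted p = 0.0175). Gzmb, granzyme B, rose from 3.55 ± 2.36 to 11.4 ± 4.25 CPM, and Prf1, perforin, from 1.8 ± 0.776 to 3.62 ± 0.714 CPM, while Eomes and Ncr1 had log2 changes of 1.74 and 1.66 without a call.

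Of 14 regulatory T cell genes 5 rose, among them the lineage factor Foxp3. Foxp3 measured 2.17, 2.83, 4.75, 9.86 and 2.46 CPM in wild-type replicates 1 to 5 and 15.4, 11.4, 9.86, 21.3 and 9.16 CPM in knockout replicates 1 to 5. Wild-type replicate 4 reached the level of knockout tumours (log2 change 1.6, SE 0.433, edgeR adjusted p = 0.0368). Il2ra, the interleukin 2 receptor alpha chain, rose from 5.63 ± 3.53 to 18.7 ± 6.89 CPM, and Ctla4 had a log2 change of 1.66 (edgeR adjusted p = 0.076). Of 20 checkpoint genes Pdcd1lg2, Cd274 and Cd80 rose. Cd274 measured 7.4, 11.9, 19.4, 31.3 and 8.26 CPM in wild-type replicates 1 to 5 and 37, 27.7, 42.3, 63.3 and 41.4 CPM in knockout replicates 1 to 5. Cd274 encodes PD-L1, and wild-type replicate 4 was above knockout replicate 2 (log2 change 1.43, SE 0.397, edgeR adjusted p = 0.0406). Pdcd1, the receptor PD-1, had a log2 change of 0.97, Lag3 1.04 and Tigit -0.25, none called. Without wild-type replicate 4, 8 regulatory T cell and 12 checkpoint genes rose, where 11.5% of all genes did. With all 10 tumours, DESeq2 had 7 regulatory T cell and 12 checkpoint genes higher, as did limma-voom. No regulatory T cell gene was called by edgeR with either host score or without wild-type replicate 2 or 5 or knockout replicate 1 or 4, and 1 to 3 rose without any other tumour. Of checkpoint genes 0 kept their call with the muscle score and 1 with the leukocyte score, and 1 rose without wild-type replicate 1, 2 or 5 or knockout replicate 3, 4 or 5.

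Of 10 tested B and plasma cell genes 6 rose and 1, Sdc1, fell. Jchain measured 1.97, 2.34, 1.65, 6.04 and 0.547 CPM in wild-type replicates 1 to 5 and 23.6, 26.2, 33.4, 103 and 5.55 CPM in knockout replicates 1 to 5. Jchain, which links polymeric antibodies, was highest in knockout replicate 4, and knockout replicate 5 was below wild-type replicate 4 (log2 change 3.93, SE 0.824, edgeR adjusted p = 0.0175). Mzb1, a chaperone of antibody secretion, rose from 0.251 ± 0.257 to 1.81 ± 1.24 CPM, and Pou2af1, a B cell coactivator, from 0.367 ± 0.339 to 2.72 ± 2.26 CPM. The B cell marker Ms4a1 was at most 0.8671 CPM in any tumour and was not tested. Sdc1 is also made by epithelial cells. No gene of this list rose by edgeR with either host score, 1 rose without wild-type replicate 1 or 2 or knockout replicate 4, and 2 without wild-type replicate 3 or 5.

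Of 18 tested neutrophil genes 5 rose and Ltf fell, with a median of 0.57, and the unscaled sum of the list was 128.8 to 213.8 CPM in wild type and 236.2 to 411.5 CPM in knockout. Retnlg measured 3.67, 0.871, 2.42, 8.47 and 2.68 CPM in wild-type replicates 1 to 5 and 83.4, 40.1, 40.8, 85 and 28.1 CPM in knockout replicates 1 to 5. Retnlg, a resistin-like gene of granulocytes, rose (log2 change 3.93, SE 0.561, edgeR adjusted p = 0.00395), and Ly6g, at most 0.259 CPM in wild type and at most 1.153 in knockout on the unscaled values, rose too. The abundant granule genes S100a8 and S100a9 had log2 changes of 0.38 and 0.28, and Cxcr2 1.02, none called. Of the list 2 rose with the muscle score, 0 with the leukocyte score, 2 without wild-type replicate 1, 2 or 5 or knockout replicate 1 or 4, and 3 without wild-type replicate 3 or knockout replicate 3.

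**Figure D4:**
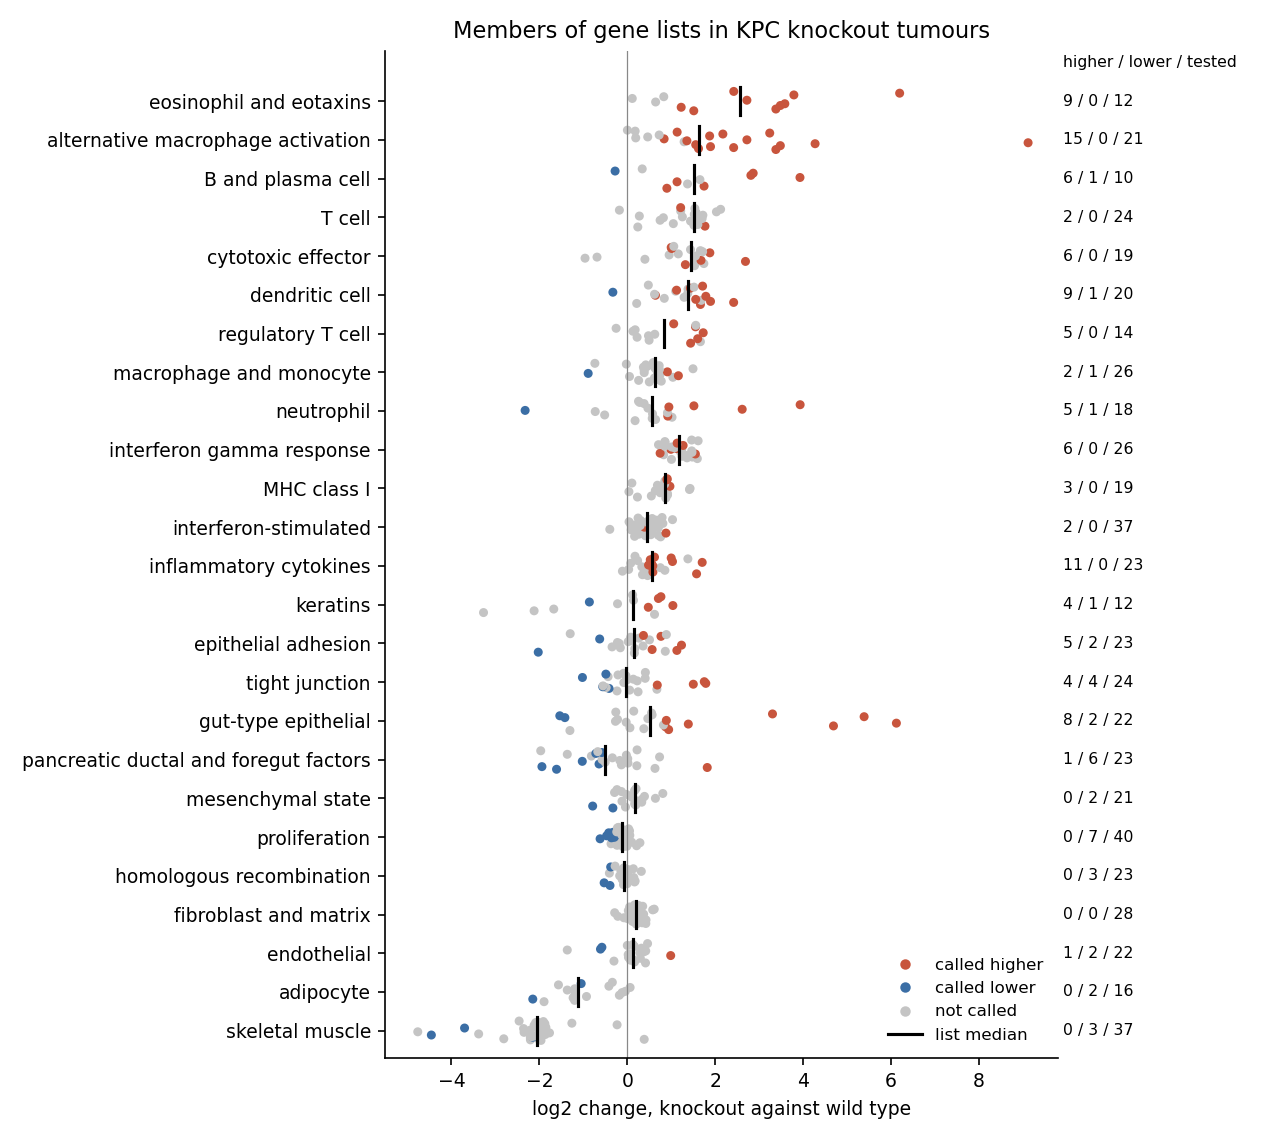
Each point is a tested gene of a list, placed at its log2 change of knockout against wild type, red where called higher, blue where called lower and grey where not called, with the list median as a black bar and the counts higher, lower and tested at the right. Eosinophil genes (median 2.57) and alternative macrophage genes (median 1.62) hold 9 of 12 and 15 of 21 members called higher, whereas skeletal muscle genes (median -2.05) hold 3 of 37 called lower.

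Of 37 interferon-stimulated genes 2 were called, Ifi35 and Isg20, both higher, with a median of 0.458. Of 26 genes of the interferon gamma response 6 rose and none fell, against 6.67% higher among all genes, with a median of 1.17 and 26 positive changes, and the groups overlapped for all 26. Psmb10 measured 36, 51.7, 60.9, 96.3 and 38.4 CPM in wild-type replicates 1 to 5 and 147, 95.3, 155, 139.9 and 146 CPM in knockout replicates 1 to 5. Psmb10, an immunoproteasome subunit, rose (log2 change 1.27, SE 0.26, edgeR adjusted p = 0.0153), as did the transcription factor gene Irf1, from 129 ± 40.01 to 257 ± 51.8 CPM. Cxcl9, a chemokine that interferon gamma induces, ranged over 8.43 to 267 CPM in wild type and 62.1 to 346 CPM in knockout. Of 19 MHC class I genes Tapbp, Tapbpl and H2-T23 rose, and H2-K1, H2-D1 and B2m had log2 changes of 0.92, 0.91 and 0.88 without a call. Of 11 MHC class II genes 1 rose, H2-DMa. Without wild-type replicate 4, which had the highest Cxcl9 of its group, 12 interferon-stimulated, 22 interferon gamma and 15 MHC class I genes rose. In that fit 11.5% of all genes rose. Without wild-type replicate 2 or 5 or knockout replicate 3, 4 or 5, 2 interferon gamma genes rose, and without wild-type replicate 1, 3. With either host score 0 genes of these lists were called higher by edgeR. The cGAS-STING path senses DNA in the cytosol. Of its 21 genes Sting1 rose and Enpp1 fell. Sting1 measured 109, 123, 121, 150.2 and 113 CPM in wild-type replicates 1 to 5 and 169.6, 137, 169, 181 and 169 CPM in knockout replicates 1 to 5. Knockout replicate 2 was below wild-type replicate 4 (log2 change 0.42, SE 0.101, edgeR adjusted p = 0.0238). Enpp1, which degrades the messenger of cGAS, fell from 126 ± 22.6 to 84.1 ± 14 CPM, and Cgas had a log2 change of 0.46 without a call. With 1 tumour left out 0 to 7 genes of this path rose, 7 of them without wild-type replicate 4.

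Of 23 tested genes of inflammation and the NF-kB pathway 11 rose and none fell, with a median of 0.558. Relb, Nfkb2 and Nfkbia, members of the pathway, had log2 changes of 0.52, 0.48 and 0.56, Tnf 1.0, Nos2, the inducible nitric oxide synthase, 1.7, and Csf2, the growth factor GM-CSF, 1.57, all called. Il1b, Il6 and Ptgs2 had 0.03, 0.33 and 0.23 and were not called. Of this list 13 rose without wild-type replicate 4, where 11.5% of all genes did. The count was 7 without wild-type replicate 1, 2 or 5 or knockout replicate 1, 4 or 5. It was 1 with the muscle score and 0 by edgeR with the leukocyte score. Of 29 chemokine genes 10 rose and Cxcl17 fell. Besides the eotaxins, Ccl17 and Ccl22, these were Cxcl16, Ccl6, Ccl8, Ccl9, Ccl19 and Ccl20. With the muscle score 1 chemokine gene rose and with the leukocyte score 0, and the count was 4 without wild-type replicate 1 or 5, 5 without knockout replicate 4, and 6 without wild-type replicate 2 or knockout replicate 1. The neutrophil attractants Cxcl1, Cxcl2 and Cxcl5 had log2 changes of -0.05, 0.03 and 0.28, and Ccl2, which draws monocytes, 0.38, none called. Of 20 complement genes C3 and Cd55 rose. C3 measured 314, 403, 486, 945 and 354 CPM in wild-type replicates 1 to 5 and 1162, 891, 879.96, 1919.5 and 1068 CPM in knockout replicates 1 to 5. C3, the central protein of complement, was highest in replicate 4 of each group (log2 change 1.24, SE 0.33, edgeR adjusted p = 0.0351).

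Of 40 proliferation genes 7 fell, against 7.01% among all genes, and none rose, with a median of -0.117 and 32 negative changes. Cenpf measured 53.2, 51.5, 55, 44.4 and 42.2 CPM in wild-type replicates 1 to 5 and 29.8, 38.3, 28, 31.4 and 32.9 CPM in knockout replicates 1 to 5. Cenpf, a kinetochore protein, was the decrease with the smallest p in this list (log2 change -0.62, SE 0.103, edgeR adjusted p = 0.00622). The others were the helicase subunit genes Mcm6 (-0.42) and Mcm7 (-0.33), the factors E2f8 and Foxm1, and the motor genes Kif11 and Kif20a. Mki67 had a log2 change of -0.24 (edgeR adjusted p = 0.146) and Top2a of 0.03. With the muscle score 1 of the 7 stayed called, and with the leukocyte score 0 by edgeR. Without wild-type replicate 1 or knockout replicate 1, 3 or 5, 3 fell, and without wild-type replicate 2 or 3 or knockout replicate 4, 4 fell. Of 25 p53 targets Fas and Ddit4 rose, while Mdm2 had 0.23 and Cdkn1a 0.62 without a call. Among 22 cancer driver genes Smad4, Brca2 and Erbb3 fell. Smad4 measured 144, 137, 148, 142 and 148 CPM in wild-type replicates 1 to 5 and 106, 121, 106, 118 and 115 CPM in knockout replicates 1 to 5. Smad4, the transcription factor of TGF-beta signalling that pancreatic cancers often lose, fell (log2 change -0.34, SE 0.0568, edgeR adjusted p = 0.00598). Trp53 and Myc had log2 changes of 0.06 and 0.05 and were not called.

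Of 28 hypoxia and glycolysis genes Ddit4 and Egln3 rose, of 33 oxidative phosphorylation genes Ndufa1, Cox5a and Cox7a2 rose, and of 28 ribosomal protein genes Rpl27 rose. Over all tested genes 6.67% rose and 7.01% fell, so such small counts are no result about a list. Of 26 cholesterol genes 2 rose, the exporter gene Abcg1 and Mvd, and 3 fell, among them Stard4. Of 24 detoxification genes Gsta2, Gpx2 and Aldh1a3 rose, and Gstm1 and Ces1d fell. Gsta2, a glutathione transferase, had a log2 change of 2.88 and its relatives Gsta1 and Gsta3 had -1.69 and -1.47 without a call, and the counting can split reads among them. Of 24 stress response genes Creld2 rose and Phgdh fell.

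None of 28 fibroblast genes was called by edgeR with all 10 tumours, with 24 positive and 4 negative changes and a median of 0.187. Without wild-type replicate 4, 2 were called higher, where 11.5% of all genes were. Col1a1, the main fibrillar collagen, had a log2 change of 0.11, and of 22 collagen genes Col18a1 and Col4a5, of basement membranes, fell. Of 22 metalloproteinases Mmp12, Mmp9 and Adam8 rose. Mmp12 measured 27.4, 31.8, 52.6, 61.4 and 26.6 CPM in wild-type replicates 1 to 5 and 131, 160.2, 108, 225 and 95 CPM in knockout replicates 1 to 5. Mmp12, the elastase of macrophages, did not overlap between groups (log2 change 1.85, SE 0.309, edgeR adjusted p = 0.00702). Of 22 endothelial genes Esm1, a marker of sprouting tips, rose, and Ptprb and Sox17 fell. Without wild-type replicate 4, 6 endothelial genes rose, where 11.5% of all genes did. Of 37 skeletal muscle genes 3 fell, Csrp3, Myoz2 and Car3, with 36 of 37 changes negative. Without the 4 tumours with Acta1 above 1000 CPM, 33 of them fell, where 5.78% of all genes did. Acta1 is itself a muscle gene, so the tumours were left out by muscle level and this count is no separate result. The 3 knockout tumours left were low in muscle, with unscaled sums of 220.4 to 318.3 CPM. The wild-type tumours left had 1274 to 4612 CPM. Of 16 adipocyte genes Scd1 and Car3 fell. S100b, of glia and fat, fell, and no skin gene was called. Over all tested genes 6.67% rose and 7.01% fell with all 10 tumours, so the small counts called in these lists are no result about a list.

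The share of genes called differed between chromosomes. A RefSeq table of GRCm38.p6 placed 14209 of the 14283 tested genes (99.5%), and the comparison by chromosome is a description without a test. On chromosome 18, 100 of 376 genes fell (26.6%) and 9 rose, against 7.01% and 6.67% of all genes, with a median log2 change of -0.241 and 77.4% of changes negative. Gata6, Cdh2, Smad4 and St8sia3 lie on this chromosome, as does Sting1, which is 1 of the 9 that rose. On chromosome 1, 147 of 853 genes fell (17.2%, median -0.121), and on chromosome 5, 105 of 890 fell (11.8%, median -0.094). Chromosome 11 went the other way, with 162 of 1174 genes higher (13.8%) and 24 lower, and a median of 0.115. Krt19, Cldn7, Hoxb6 and Hoxb7 lie there. Chromosome 15 was mixed, since 38 of the first 143 tested genes along it fell (26.6%) and 2 rose, while of the next 143 genes 17 rose and 8 fell.

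The chromosome pattern was seen in each tumour. Over the 273 chromosome 18 genes whose mean log2 CPM was 3 or more, the median deviation from a gene's mean over the 10 tumours was 0.06, 0.051, 0.199, 0.096 and 0.117 in wild-type replicates 1 to 5. It was -0.124, -0.088, -0.129, -0.064 and -0.125 in knockout replicates 1 to 5. Every wild-type tumour was thus above every knockout tumour. Chromosomes 1 and 5 had the same order without overlap, and chromosome 11 the opposite order without overlap. Chromosomes 12 and 14 were only just apart. Their lowest wild-type medians were -0.001 and -0.006, and their highest knockout medians -0.006 and -0.015. For chromosome 11 the medians were -0.087 to -0.032 in wild type and 0.018 to 0.097 in knockout. The median change of chromosome 18 was -0.257 with the muscle score, -0.252 with the leukocyte score, -0.253 with both, -0.24 without wild-type replicate 4 and -0.241 without the tumours high in Acta1. These scores cover muscle and leukocytes only, and both moved with genotype, the muscle score in part. The source of the shift was not tested. Copy number was not measured.

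**Figure D5:**
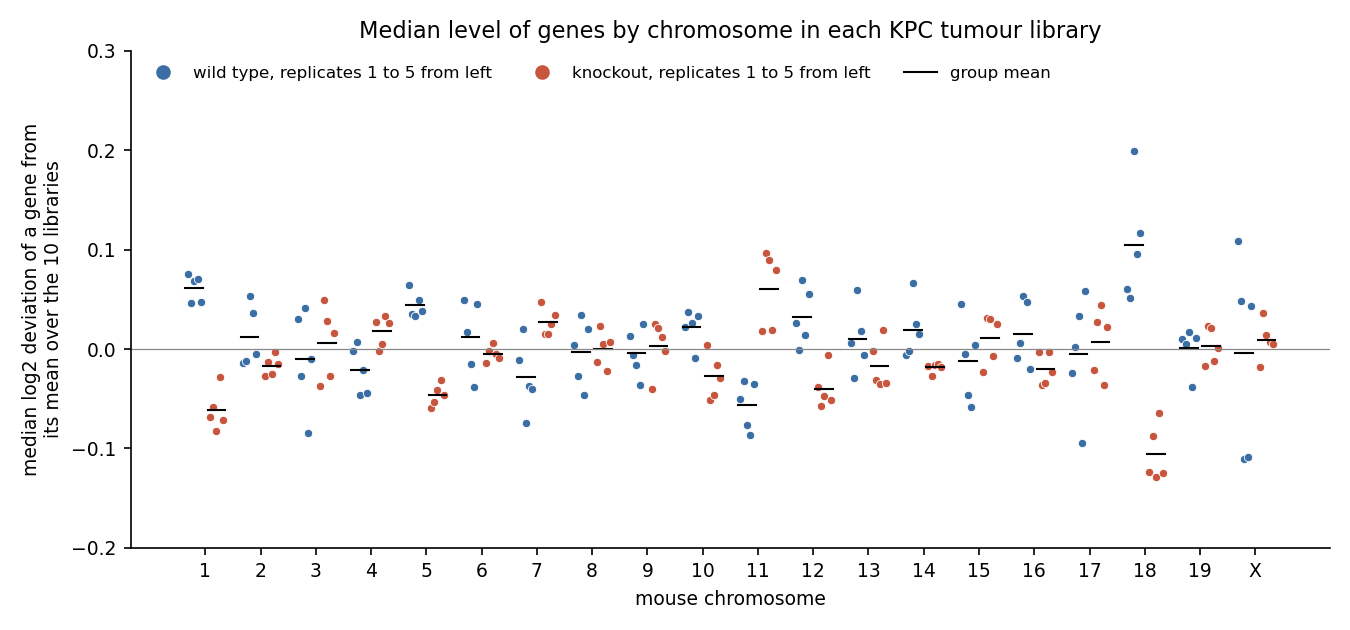
Each point is 1 tumour, and its height is the median, over genes of a chromosome whose mean log2 CPM was 3 or more, of a gene's log2 deviation from its mean over the 10 tumours, with replicates 1 to 5 from left to right and the group mean as a bar. Chromosome 18 lies between 0.051 and 0.199 in wild type and between -0.129 and -0.064 in knockout, and chromosome 11 between -0.087 and -0.032 and between 0.018 and 0.097.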

How the data were processed

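RNA of 10 KPC tumours was analysed, 5 of the unedited and 5 of the Trp53bp1 knockout line; the 6 tumours of the other line, ID8, were not used here. Per the labels' protocols, total RNA was purified with RNeasy and sequenced and processed at BGI. The values are expected counts per gene, as deposited by the authors in a table per line, and the submitters' processing notes name HISAT, RSEM 1.2.8 and the builds GRCm39 and mm39. Between 7.77% and 9.16% of a library's values were not whole, and they were rounded.

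The wild-type and knockout tables were joined on gene identifier, with a gene in 1 table set to 0 in the other, giving 18284 genes, of which 17312 were in both, 525 in the wild-type and 447 in the knockout table alone. No column of per-sample values was left unmatched to a label. No 2 replicates agreed within sampling noise. Counts kept by filterByExpr (14283 genes) were scaled by TMM and tested with edgeR 4.0.16 in R 4.3.3 (robust quasi-likelihood F test, groups of 5, no covariate), with Benjamini-Hochberg adjustment over all tested genes. SE was approximated from the size of the log2 change and the F statistic of the test. The biological coefficient of variation was 25.1% and the median SE 0.12. On simulated counts with 200 of 14283 genes changed, 38.5%, 73.1% and 92.3% of genes changed 1.5, 2 and 4-fold were recovered, and 4.43% of calls were false. The simulation drew each gene on its own, without the muscle and leukocyte differences that many genes share in these tumours. Its false share therefore does not carry over to the calls made on the real counts.

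Alternatives were DESeq2 1.42.0, limma-voom (limma 3.58.1), other scaling and filters, host-tissue scores as covariates, a replicate block and each tumour left out. Genes were named by rule: Trp53bp1, the 15 largest increases and decreases, the 10 smallest p in each direction, members of the gene lists and cell type markers, and 10 genes of the retained set in each direction. The comparison, the gene lists and this rule were chosen with earlier results of these data known. Some genes are not reported here. Promoters were read from a RefSeq table of GRCm38.p6, matched by symbol for 11301 of 14283 tested genes; chromosomes came from a RefSeq table of the same build, and no coordinate was converted.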

Additional observations from a re-analysis of the deposited data

Results flagged for a closer look

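Across 148 groups of 5 tumours checked, 18 had a tumour set apart from the other 4 by Dixon's criterion at 95%, where chance gives about 1 in 20. Wild-type replicate 4 accounts for 7 of them. Its T cell genes summed to 239 CPM against 84.3 to 127 in the other wild-type tumours, and its endothelial genes to 1200 against 849 to 891. In the same tumour Chil4 was 8.83 CPM, with 0 to 0.774 in the others, Ccr3 was 3.2 against 0.381 to 0.984, and Prg2, the eosinophil granule protein gene, was 1.03 against 0.103 to 0.206. C3 was 945 against 314 to 486, and Xrcc5 was 44.5 against 59.4 to 61.5, the one of these that was low. The count of genes called over all genes rose to 3106 without this tumour.

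Wild-type replicate 2 had a skeletal muscle sum of 48500 CPM, with 1270 to 11400 in the others. Wild-type replicate 3 had skin and squamous genes at 1010 CPM, against 110 to 257, a keratin sum of 6690 against 5320 to 5450, and Krt19 at 1360 against 929 to 1040. Muc6 was 17.6 CPM in wild-type replicate 5 and 0.877 to 4.6 in the other wild-type tumours.

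Among knockout tumours, replicate 2 had a keratin sum of 10600 CPM against 8790 to 8870 and Krt19 at 2470 against 2110 to 2210, and it was the lowest for Psmb10, at 95.3 against 140 to 155, and for Sting1, at 137 against 169 to 181. Knockout replicate 4 was the highest for Jchain, at 103 CPM against 5.55 to 33.4, and for C3, at 1920 against 880 to 1160.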

How the results depend on the processing

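Of 1953 genes changed (952 higher, 1001 lower), the count was 3162 (1624 higher, 1538 lower) with DESeq2 and 3163 (1642, 1521) with limma-voom, and 550 (365, 185) for a log2 change of at least 1. It was 291 (111, 180) with the muscle score, 341 (207, 134) with the leukocyte score and 163 (104, 59) with both, and 1952 with median-of-ratios scaling. Without the 4 tumours high in Acta1 the count was 2020 (1193, 827), which moved the share of higher calls by over 10 percentage points. Leaving out 1 tumour gave 934 to 3106 genes, 409 to 1644 higher and 525 to 1462 lower, the highest of each without wild-type replicate 4; the cause was not tested. Trp53bp1 kept its direction in every alternative. Its log2 change of -0.59 was smaller than the cut-off of log2 1. The change was -0.4 (edgeR adjusted p = 0.101) with the leukocyte score, -0.45 (0.125) with both scores, and -0.63 to -0.51 with 1 tumour left out. Ptprc, not called, reversed to -0.07 with the leukocyte score and to -0.11 with both. Of 89 named genes called, 51 kept their call with the muscle score, 39 with the leukocyte score, 38 with both, 84 with the replicate block, 89 with DESeq2, 87 with limma-voom, and 73 to 89 with 1 tumour left out. The replicate numbers did not pair the tumours, since deviations of same-numbered tumours correlated at -0.161, 0.636, 0.217, 0.246 and -0.594 for numbers 1 to 5, and wild-type replicate 2 correlated best with knockout replicate 5. With the replicate block 1665 genes were called (973 higher, 692 lower) and Trp53bp1 was still called, at -0.6. Depth limited genes under 0.155 to 0.168 CPM, the level of 3 counts.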
